A study of Mus musculus with 16 samples.

Results

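The comparison described here was that of high salt in dendritic cells stimulated with lipopolysaccharide (LPS), the cell wall component of Gram-negative bacteria. It took all 4 arrays of LPS-treated cells grown in medium of 450 mOsm/L and set them against all 4 arrays of LPS-treated cells grown in medium of 290 mOsm/L, which is 8 of the 16 arrays of the series. The other 8 arrays held cells of the same mice without LPS, and they were used to ask where the salt effect differed between stimulated and resting cells. Bone marrow of 4 C57BL/6 mice was cultured with 10 ng/mL of granulocyte-macrophage colony-stimulating factor (GM-CSF), sodium chloride was added from day 3 to reach the higher osmolarity, and cells collected on day 7 were plated for 6 h with 10 ng/mL of LPS or without it. Every one of the 4 mice gave a culture to each group, so the replicate number stands for the mouse. All groups shared the strain and the GM-CSF, and both groups of the main comparison shared the LPS. The age and sex of the mice were not given. Whether the plating medium of the last 6 h had the osmolarity of the culture medium was not stated either. The cells at 450 mOsm/L had matured in salt for several days before LPS was added, so an effect of salt on the maturing culture and an effect on the response to LPS cannot be told apart in a single comparison of the LPS-treated groups.

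Cells that face a hypertonic medium lose water and take up or retain small organic solutes such as betaine, inositol and taurine, and the transcription factor NFAT5 (TonEBP) switches on the transporters that do so. LPS is sensed by TLR4 and drives the NF-kB, MAP kinase and interferon pathways, through which dendritic cells make cytokines, present antigen and display costimulatory ligands to T cells. GM-CSF cultures of bone marrow are mixed: they yield dendritic cells together with macrophage-like cells and a varying remainder of granulocytes.

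Expression was read as log2 intensity of probe sets on mouse oligonucleotide arrays. Of 22549 probe sets, 20646 carried a single gene symbol, 551 carried several and 1352 carried none. After the filter on dim probe sets and the choice of a single probe set for each gene, 10236 genes were tested, from 12097 probe sets that passed. All 8 arrays with LPS had medians between 6.78 and 6.86, and arrays of the same LPS group correlated at 0.993 to 0.996 over all genes. The SD over genes of the difference between a pair of arrays was 0.132 to 0.180 within the 290 mOsm group with LPS, 0.128 to 0.160 within the 450 mOsm group with LPS, and 0.341 to 0.389 between the groups. The number of arrays limits the precision, and the median standard error of a log2 change was 0.067. Dendritic cell genes were present in both groups: 13 of 16 markers passed the filter, and MHC class II, represented by H2-Ab1, had means of 13.28 (290 mOsm) and 13.30 (450 mOsm) in LPS-treated cells. Of these 13 markers, 2 rose (4 with the mouse as a block) and 2 fell, among them Dpp4 at 0.90 and the cytokine receptor gene Flt3 at -1.02, and their summed level (log2 of the sum of intensities) was 15.71 to 15.84 in the 290 mOsm cultures with LPS and 15.77 to 15.83 in the 450 mOsm cultures. The LPS labels were met by Il12b, a gene that LPS induces, which had means of 6.73 without LPS and 12.72 with it at 290 mOsm.

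The cultures labelled as dendritic cells also held RNA of neutrophil genes, and its level differed between the groups. Neutrophil markers stood high in the 290 mOsm cultures and much lower in the 450 mOsm cultures. Of 15 neutrophil markers tested, 13 fell and none rose, where 21.8% of all genes tested fell and 16.8% rose, and their median log2 change was -2.39. Ngp, which encodes a neutrophil granule protein, read 12.48, 12.78, 12.71 and 12.80 in mice 1 to 4 at 290 mOsm and 6.78, 7.40, 7.84 and 6.81 at 450 mOsm, both with LPS. All 4 salt cultures lay far below all 4 controls, a 44.9-fold lower level (log2 change -5.49 ± 0.18 SE, limma with Benjamini-Hochberg adjustment, adjusted p = 3.23e-13). The S100a9 probe set, for a calcium-binding protein abundant in neutrophils and monocytes, read 12.57, 12.85, 12.78 and 12.92 without added salt and 7.91, 7.97, 8.70 and 8.15 with it, a 24.2-fold fall. Ltf, the granule protein lactoferrin, read 10.71, 11.13, 11.04 and 11.36 at 290 mOsm and 6.55, 6.48, 6.59 and 6.48 at 450 mOsm, a 23.2-fold fall. Without LPS all 15 markers fell with salt, beside 23.7% of all genes, with a median of -2.80. Ngp, S100a9 and Ltf fell by 6.03, 5.12 and 4.94 there, and their difference in salt effect was not called. At 450 mOsm with LPS, Ltf in every mouse and Ngp in mice 1 and 4 lay under the filter value of 6.83. Their resting means at 450 mOsm, 6.17 for Ltf and 6.27 for Ngp, did too. The folds and differences of these genes thus rest on dim probe sets at 450 mOsm. The difference in salt effect was called higher with LPS for 4 of the 15 markers and lower for 1, beside 10.7% and 10.4% of all genes. In bulk RNA, fewer cells of a type and less RNA per cell cannot be told apart. The neutrophil list summed to 15.18 to 15.49 in the LPS-treated cultures at 290 mOsm and to 13.94 to 14.03 in those at 450 mOsm, and its part in the other results was not tested. Lcn2, described below, had a mean of 13.41 at 450 mOsm with LPS. It made up much of the sum there, so the sum fell less than most markers.

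A pair of the neutrophil genes did not pass the test with LPS. Lcn2, which encodes the siderophore-binding protein lipocalin 2, read 13.43, 13.52, 13.65 and 13.66 at 290 mOsm and 13.48, 13.35, 13.39 and 13.42 at 450 mOsm, both with LPS. These values overlapped, and the change was -0.16 ± 0.15 (SE). In the cultures without LPS the mean of Lcn2 was 12.27 at 290 mOsm and 7.96 at 450 mOsm, so it fell by 4.31, and the salt effect differed between LPS and no LPS by 4.16 ± 0.21 (SE, limma with Benjamini-Hochberg adjustment, adjusted p = 4.85e-10). The LPS values of Lcn2 lay within 1 log2 unit of 14.32, the highest value in the table. The G-CSF receptor gene Csf3r changed by 0.07 ± 0.10.

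Markers of some other cell types of bone marrow cultures were also lower. Mast cell and basophil genes were represented by 6 tested markers, of which 3 fell and 1 rose, and 8 more did not pass the filter. Mcpt8, a basophil protease, fell by 2.75 on the log2 scale and Cpa3, the mast cell carboxypeptidase, fell by 2.39. All 3 tested genes of the erythroid and megakaryocyte list fell, among them the platelet chemokines Pf4 (-1.65) and Ppbp (-1.12). The erythroid genes Klf1, Epor and Alas2 did not pass the filter, and 4 more of the 10 genes were not analysed. Of 12 macrophage markers, 8 fell and 1 rose, and the summed level was 15.32 to 15.38 in the 290 mOsm cultures with LPS and 14.96 to 15.08 in the 450 mOsm cultures. The count of macrophage markers that fell was 5 without mouse 1 and 5 without mouse 2. Mertk, a receptor for the uptake of dying cells, read 11.81, 11.71, 11.61 and 11.74 at 290 mOsm and 10.63, 10.54, 10.51 and 10.73 at 450 mOsm, a 2.17-fold fall with no overlap. The scavenger receptor Marco fell by 1.33, and the mannose receptor Mrc1 and the macrophage marker Adgre1 had changes of -0.72 and -0.68. Of 7 monocyte markers, 3 fell, 1 rose and 3 were not called, with a median of -0.02, and Chil3 and Plac8 were among those that fell, at -2.23 and -1.90. None of 7 natural killer cell genes on the array passed the filter, and 8 of 9 B cell genes did not. Of 7 tested genes of plasmacytoid dendritic cells, 2 rose and none fell. The other marker lists were small: 1 of 3 eosinophil genes rose and 2 fell, with the granule gene Prg2 at -1.59, 1 of 4 T cell genes rose and 1 fell, and 1 of 5 progenitor genes rose and 2 fell. Of 5 stromal and endothelial genes 1 rose, the VEGF receptor gene Kdr at 1.38.

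Among all genes, limma called 3956, with a Benjamini-Hochberg adjusted p below 0.05, which is 38.6% of those tested. Of these, 1724 rose and 2232 fell with salt in LPS-treated cells, or 16.8% and 21.8% of the genes tested. These shares are the background for every count of list members that rose or fell with LPS. In 3796 of the called genes the sign was the same within all 4 mice. Most called changes were small: 3382 of them, or 85.5%, were under 1.5-fold. A rise of at least 2-fold was called for 91 genes (0.889%) and a fall of at least 2-fold for 107 (1.05%). The groups did not overlap for 17.1% of genes in the direction of a rise and 22.3% in the direction of a fall. The median change of all genes was 0.0015 on the log2 scale.

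By the rule for named genes, which left out some symbols by their first letters, the highest called changes with the same sign in each mouse were those of Slamf1, Il33, Hamp, Fxyd2, Tnfrsf9, Mt2, Hilpda, Slc6a12 and Vegfa, each over 4-fold, followed by the solute channel gene Aqp9, the oxysterol receptor gene Gpr183, Klk1b11, Il19, the lectin gene Mgl2 and Ccn3 at changes between 1.98 and 1.80. The probe set of Rnase2a, an eosinophil-type ribonuclease, had the larger change of 4.48 ± 0.37 (SE). Its symbol begins with Rn, the letters by which small RNA symbols were left out, so it lay outside the rule and is named after its values were seen. Rnase2a and Klk1b11 belong to families of near-identical copies, so their probe sets may read related genes too. The lowest changes were led by the neutrophil genes Ngp, S100a9 and Ltf, with Ly6a2, S100a8, Camp, Chil1, Pglyrp1, Cxcr2, Mcpt8, Olfm4, Ly6g, Stfa2, Retnlg and Cpa3 at changes between -3.71 and -2.39.

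**Figure D1:**
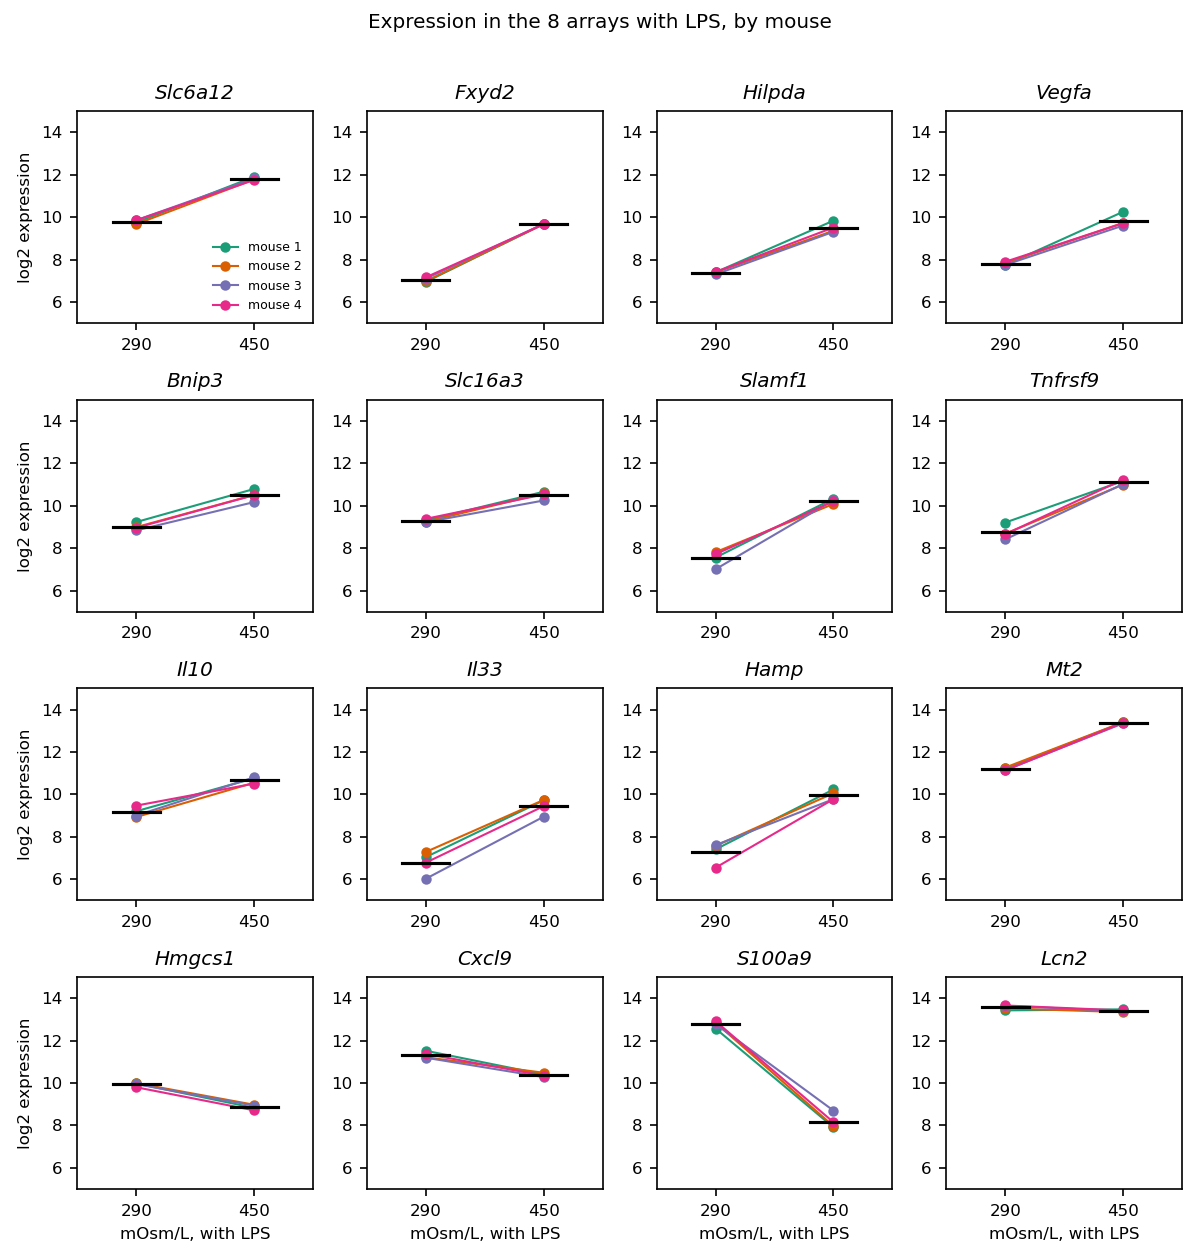
Log2 expression of 16 genes in the 8 LPS-treated cultures, with osmolarity on the horizontal axis, 1 coloured line for each mouse and a black bar for the mean of each group. For the first 12 genes all 4 cultures at 450 mOsm lie above all 4 at 290 mOsm, Hmgcs1, Cxcl9 and S100a9 lie below, and the Lcn2 values overlap.

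Most genes of osmotic adaptation rose. Of 17 tested, 10 were called higher and none lower, with a median change of 0.30. Slc6a12, the betaine transporter and a classic NFAT5 target, read 9.75, 9.67, 9.86 and 9.86 at 290 mOsm and 11.91, 11.78, 11.83 and 11.75 at 450 mOsm, both with LPS. Its 4 salt cultures lay together about 2 log2 units above the controls, at 4.09-fold (log2 change 2.03 ± 0.07 SE, limma with Benjamini-Hochberg adjustment, adjusted p = 1.03e-12). Fxyd2, the regulatory gamma subunit of the sodium-potassium pump, read 6.95, 6.99, 7.11 and 7.17 against 9.68, 9.68, 9.69 and 9.67, a 6.17-fold rise with no overlap. The glycine transporter gene Slc6a9 rose by 1.04 and the amino acid transporter gene Slc38a2 by 0.39.

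The inositol transporter gene Slc5a3 rose less. It read 6.73, 6.86, 6.74 and 6.63 at 290 mOsm and 7.48, 7.39, 7.23 and 7.46 at 450 mOsm, both with LPS, so the groups stood apart at 1.57-fold. Without LPS the mean of Slc5a3 was 6.86 at 290 mOsm and 9.33 at 450 mOsm, a change of 2.47 ± 0.09 (SE). The salt effect on Slc5a3 was thus smaller with LPS by 1.82 ± 0.13 on the log2 scale (limma with Benjamini-Hochberg adjustment, adjusted p = 2.58e-08). Slc6a12 and Fxyd2 also changed less with LPS than without, by 1.35 and 0.68, and Slc38a2 by 0.52. Over the 17 genes of osmotic adaptation, the difference was called higher with LPS for 6 and lower for 5, beside 10.7% and 10.4% of all genes. Without LPS 7 of them rose and 6 fell, beside 20.6% and 23.7% of all genes, with a median of -0.03. For Slc6a12 the means without LPS were 8.51 and 11.89, so the level at 450 mOsm was alike and the level at 290 mOsm was lower than with LPS.

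For Nfat5 itself the salt effect was the larger one with LPS. It read 9.27, 9.33, 9.06 and 9.33 at 290 mOsm and 9.96, 9.92, 9.99 and 9.71 at 450 mOsm, both with LPS, a 1.56-fold rise without overlap. Without LPS it read 8.85 and 8.82 on average, and the salt effects differed by 0.67 ± 0.13 (limma with Benjamini-Hochberg adjustment, adjusted p = 0.000696). The chaperone gene Hsph1 rose by 0.43 with LPS and fell by 0.41 without it, a difference of 0.84.

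Of the 44 pathway lists, the hypoxia response had the largest share of genes that rose. Under low oxygen the subunit HIF-1alpha escapes the prolyl hydroxylases and induces genes for glycolysis, vessel growth and mitochondrial turnover, and LPS can raise HIF-1alpha in myeloid cells without low oxygen. Of 22 tested hypoxia genes outside glycolysis, 19 rose and none fell, with a median change of 0.69, and 4 more did not pass the filter. The 3 that did not pass the test were Bnip3l, Vhl and Epas1, at -0.12, -0.07 and -0.14. Bnip3l was called lower with the mouse as a block (adjusted p = 0.0357 by limma), and Epas1 was called lower without mouse 4 (-0.24). Of 19 glycolysis and lactate export genes, 13 rose and 2 fell, with a median of 0.45.

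The RNA of Hif1a, which encodes HIF-1alpha, also rose. HIF-1alpha protein was not measured, and its part in the other changes was not tested. Hif1a read 11.91, 11.81, 11.66 and 11.67 at 290 mOsm and 12.84, 12.83, 12.70 and 12.69 at 450 mOsm, both with LPS, a 2.00-fold higher level in which each mouse rose by 0.93 to 1.04. Its hydroxylases Egln1 and Egln3, which mark HIF-1alpha for destruction and are themselves hypoxia-induced, rose by 1.42 and 1.09. Egln1 read 8.76, 8.47, 8.52 and 8.55 against 10.17, 10.10, 9.80 and 9.93, a 2.68-fold rise.

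Among the hypoxia genes that rose, Hilpda led. It encodes a lipid droplet protein that inhibits triglyceride breakdown, and it read 7.40, 7.40, 7.30 and 7.41 at 290 mOsm and 9.84, 9.36, 9.31 and 9.51 at 450 mOsm, both with LPS. The groups were separated by nearly 2 log2 units and the change was 4.36-fold (2.12 ± 0.10 SE, limma with Benjamini-Hochberg adjustment, adjusted p = 2.12e-11). Vegfa, the vascular endothelial growth factor, read 7.75, 7.84, 7.75 and 7.90 against 10.26, 9.73, 9.61 and 9.72, a 4.05-fold rise. The mitophagy gene Bnip3 read 9.23, 8.99, 8.84 and 8.96 against 10.80, 10.51, 10.18 and 10.51, a 2.81-fold rise. Mouse 1 had the highest salt value for all 3 genes. Ankrd37, the oxidase gene Ero1a, the mTOR inhibitor gene Ddit4, Ndrg1 and the histone demethylase gene Kdm3a rose by 1.36, 1.06, 0.73, 0.70 and 0.69.

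Along glycolysis, genes from uptake to export rose. Slc2a1, also counted in the osmotic list, the glucose transporter GLUT1, read 11.40, 11.33, 11.49 and 11.57 at 290 mOsm and 12.85, 12.56, 12.43 and 12.63 at 450 mOsm, both with LPS. All salt values exceeded all controls, at 2.26-fold. The kinases that trap and commit glucose rose as well: Hk2 by 0.87, Hk1 by 0.79 and Pfkl by 0.93. Pfkl read 9.51, 9.29, 9.23 and 9.38 against 10.36, 10.32, 10.12 and 10.31, a 1.90-fold rise. Aldoc rose by 1.18, Tpi1 by 1.07, Pgk1 by 0.42 and Ldha, which makes lactate, by 0.45. Slc16a3, the lactate exporter MCT4, read 9.31, 9.25, 9.23 and 9.39 against 10.66, 10.59, 10.25 and 10.54, a 2.32-fold rise with no overlap. Pdk1, which holds pyruvate back from the mitochondria, rose by 0.65. The 2 genes that fell were Slc2a3, the glucose transporter GLUT3, which is also expressed in granulocytes, at -0.73, and the hexokinase gene Hk3 at -0.19. Hk3 lost its call when any 1 of the 4 mice was left out (changes from -0.21 to -0.16).

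The promoters of the tested genes of the hypoxia and glycolysis lists were searched for the core of the hypoxia response element. The letters searched were ACGTG and GCGTG on both strands of the 250 bases before each start site in RefSeq (GRCm38.p6). ACGTG overlaps its own reverse complement in CACGTG. At least 1 match was found in 77.8% of 27 promoters of the glycolysis list and in 75.0% of 24 promoters of the hypoxia list. The same held for 55.7% of 10496 promoters of all genes tested and for 38.6% of 32851 promoters in the table. For both lists together the share was 76.5% of 51 promoters, and for their genes called higher it was 78.6% of 42. The lists were put together by gene role, so an excess over all genes can come from the choice of list. Its relation to the salt effect was not tested. The promoters of 3 genes of different roles, in mitophagy, glucose uptake and lactate export, are shown with their matches in capitals. They were chosen because they hold matches and so do not stand for the lists. They are written 5′ to 3′ on the strand of the gene, ending at the base before the start site. They lie at chr7:138909507-138909756 on the minus strand for Bnip3, chr4:119108495-119108744 on the plus strand for Slc2a1 and chr11:120948817-120949066 on the plus strand for Slc16a3, and hold 5, 2 and 2 matches.
Bnip3: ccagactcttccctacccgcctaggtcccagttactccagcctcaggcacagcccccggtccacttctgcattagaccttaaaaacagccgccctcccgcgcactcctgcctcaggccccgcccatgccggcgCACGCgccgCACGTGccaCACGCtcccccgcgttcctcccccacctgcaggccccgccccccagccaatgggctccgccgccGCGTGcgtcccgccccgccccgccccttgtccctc
Slc2a1: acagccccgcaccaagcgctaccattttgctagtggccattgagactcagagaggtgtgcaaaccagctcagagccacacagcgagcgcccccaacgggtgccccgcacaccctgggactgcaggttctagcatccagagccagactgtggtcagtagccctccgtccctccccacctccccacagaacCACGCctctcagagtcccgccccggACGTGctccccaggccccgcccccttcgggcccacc
Slc16a3: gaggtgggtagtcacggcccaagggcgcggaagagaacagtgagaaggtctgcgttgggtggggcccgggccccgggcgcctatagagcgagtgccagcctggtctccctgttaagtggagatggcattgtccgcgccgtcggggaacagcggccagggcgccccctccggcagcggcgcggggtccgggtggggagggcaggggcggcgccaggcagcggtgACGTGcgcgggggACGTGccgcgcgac
In Bnip3 a cluster of matches lies between bases -117 and -99 and another match at -35, where a position is that of the first base of the match. A match in letters is a description of the sequence and does not show binding.

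**Figure D2:**
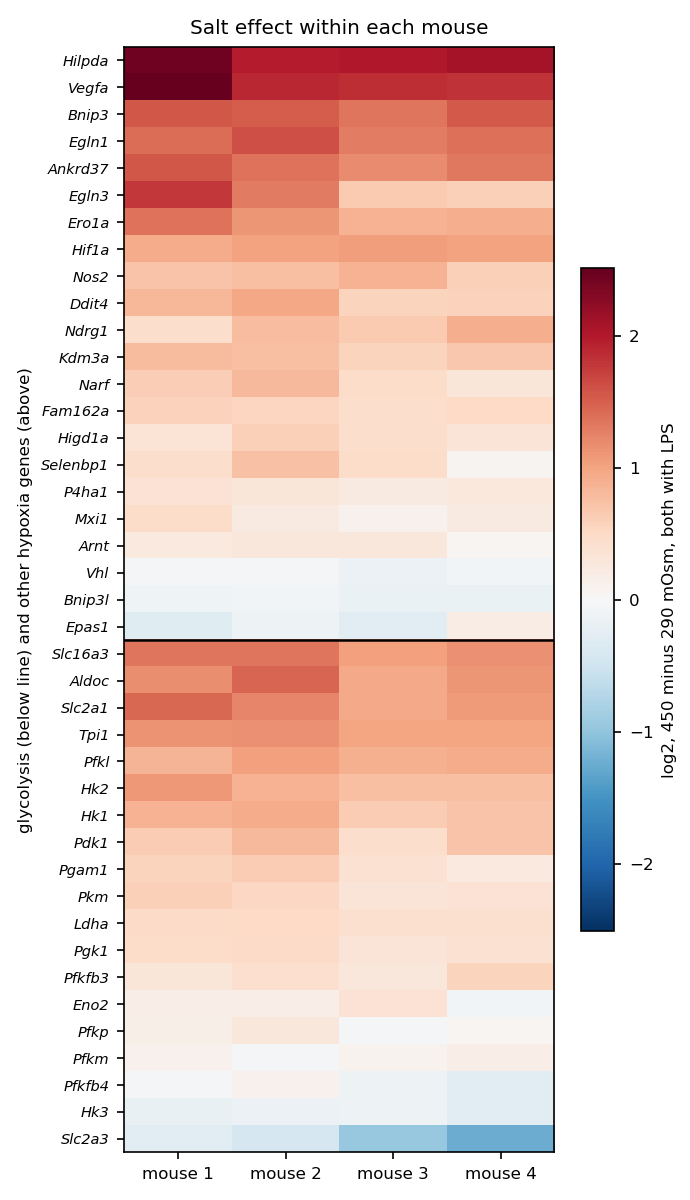
Log2 change from 290 to 450 mOsm with LPS within each mouse, as colour, for 22 hypoxia genes above the line and 19 glycolysis genes below it, ordered by the mean change. The top rows are red in all 4 mice, and Slc2a3 at the bottom is blue in all 4.

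The hypoxia genes behaved differently in the resting cultures. Without LPS, 4 of the 22 rose and 4 fell, beside 20.6% and 23.7% of all genes, with a median of 0.05. The difference in salt effect was called higher with LPS for 13 and lower for none, where it was called higher for 10.7% of all genes. Hilpda fell by 0.69 without LPS, from 7.79 to 7.10, and the difference between the salt effects was 2.82 ± 0.14 (SE, limma with Benjamini-Hochberg adjustment, adjusted p = 4.85e-10). For Vegfa the means without LPS were 9.78 and 9.69, close to the 9.83 of the salt cultures with LPS, while the 290 mOsm cultures with LPS stood at 7.81. The Vegfa level was thus low in a single group, the LPS-treated cells at 290 mOsm. Slc2a1 fell by 0.51 without LPS and rose by 1.17 with it. Of the 19 glycolysis genes, 11 had a called difference in favour of LPS and none the reverse. Hif1a rose by 0.58 without LPS, and the difference of 0.42 was called.

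Genes for nitric oxide and arginine use, which HIF also regulates, were called higher in 4 of 11 and lower in 2. Nos2, the inducible nitric oxide synthase, rose by 0.74 and the mitochondrial arginase Arg2 by 0.88. Of 27 genes of the respiratory chain and TCA cycle, 8 fell and 2 rose, beside 21.8% and 16.8% of all genes, and the median of -0.05 was no larger than its SD over the 4 mice (0.05). Idh2 fell by 0.53 and Cox5a by 0.38. Of 7 genes of the phagocyte NADPH oxidase, none rose and 1 fell.

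The metallothionein genes Mt2 and Mt1, for small proteins that bind zinc and copper, rose. Mt2 read 11.22, 11.27, 11.14 and 11.14 at 290 mOsm and 13.40, 13.41, 13.35 and 13.38 at 450 mOsm, both with LPS, a 4.57-fold rise (2.19 ± 0.10 SE, limma with Benjamini-Hochberg adjustment, adjusted p = 1.6e-11). The 4 mice rose by 2.14 to 2.25. Mt1 read 12.25, 12.22, 12.22 and 12.22 against 13.55, 13.52, 13.44 and 13.44, a 2.39-fold rise without overlap. The list of metallothioneins and zinc transporters had 7 of 18 genes higher and 4 lower, with a median of 0.10. The zinc importers Slc39a14 and Slc39a4 rose by 1.32 and 1.01, the exporter Slc30a1 fell by 0.36, and the metal-sensing factor Mtf1 stood at 0.01 ± 0.06. The count of zinc-list genes that fell was 2 without mouse 1. Slc39a14 fell by 0.29 without LPS, and the difference in salt effect was 1.61. For Mt2 and Mt1 the differences were 0.93 and 0.95, with rises of 1.27 and 0.30 without LPS.

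Metal response elements, through which MTF-1 acts, have the core TGCACNC or TGCGCNC. One or the other was present on either strand in 41.2% of 17 promoters of the list, in 29.6% of the promoters of all genes tested and in 21.4% of all promoters. The letters upstream of the start sites of Mt1 and Mt2, shown because both genes rose in every mouse, are at chr8:94178839-94179088 and chr8:94172368-94172617 on the plus strand (RefSeq, GRCm38.p6), with 1 and 3 matches in capitals.
Mt1: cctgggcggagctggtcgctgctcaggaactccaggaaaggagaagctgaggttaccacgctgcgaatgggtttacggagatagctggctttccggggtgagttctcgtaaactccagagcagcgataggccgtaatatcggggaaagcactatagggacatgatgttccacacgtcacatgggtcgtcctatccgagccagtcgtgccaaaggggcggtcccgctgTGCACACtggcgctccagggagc
Mt2: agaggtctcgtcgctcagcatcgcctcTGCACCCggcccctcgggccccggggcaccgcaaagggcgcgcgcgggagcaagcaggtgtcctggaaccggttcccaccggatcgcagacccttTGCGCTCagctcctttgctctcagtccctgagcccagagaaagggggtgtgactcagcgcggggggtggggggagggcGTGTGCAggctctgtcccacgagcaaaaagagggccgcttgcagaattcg
The start site in the table decides which letters fall in this window, so the count of matches applies to the window alone.

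Iron genes divided. Of 14 tested, 5 rose and 5 fell. Hamp, which encodes hepcidin, the hormone that triggers breakdown of the iron exporter ferroportin, read 7.41, 7.57, 7.61 and 6.55 at 290 mOsm and 10.23, 10.06, 9.78 and 9.78 at 450 mOsm, both with LPS, a 6.39-fold rise. Slc40a1, the gene of ferroportin, read 9.56, 9.70, 9.72 and 9.64 against 8.57, 8.52, 8.78 and 8.46, a 2.11-fold fall. Neither gene had overlapping groups. The fall of Slc40a1 without LPS was 1.10, close to the 1.07 with LPS, whereas Hamp changed by 0.28 ± 0.20 without LPS and the difference for it was 2.40 ± 0.29 (limma with Benjamini-Hochberg adjustment, adjusted p = 1.09e-05). The transferrin receptor gene Tfrc fell by 0.58 and heme oxygenase Hmox1 rose by 0.36. NRF2 antioxidant genes were called higher in 5 of 19 and lower in 3, with Nqo1 up by 0.88, Me1 by 0.56 and Gsta3 down by 0.50. Gclc, the catalytic subunit for glutathione synthesis, read 9.32, 9.61, 9.72 and 9.89 against 10.51, 10.30, 10.65 and 10.39, a 1.77-fold rise.

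Among the cytokine lists, that of the IL-10 axis had the largest share of genes that rose. IL-10 restrains macrophages and dendritic cells through STAT3 and SOCS proteins. Of 16 tested genes of this list, 11 rose and none fell, with a median of 0.38. Il10 read 9.21, 8.93, 9.0 and 9.47 at 290 mOsm and 10.76, 10.55, 10.81 and 10.51 at 450 mOsm, both with LPS. All salt values lay more than 1 log2 unit above the highest control, and the rise was 2.84-fold (1.5 ± 0.12 SE, limma with Benjamini-Hochberg adjustment, adjusted p = 1.84e-08). Il19, a relative of Il10, read 5.87, 5.96, 5.86 and 6.00 against 7.92, 7.91, 7.57 and 7.73, a 3.63-fold rise. Its 290 mOsm values lay under the filter value of 6.83, in the range of dim probe sets. Without LPS the Il19 means were 5.65 at 290 mOsm and 5.73 at 450 mOsm. Only the 450 mOsm group with LPS, at a mean of 7.78, exceeded the filter value. Il19 thus entered the test through the group in which it was high, and it is counted among the 11 genes that rose. The receptor gene Il4ra read 10.77, 10.68, 10.56 and 10.82 against 11.77, 11.46, 11.37 and 11.67, a 1.82-fold rise. Nfil3 rose by 0.88, the SOCS-family gene Cish by 0.87, Stat3 by 0.47 and Socs3 by 0.40. Without LPS Il10 stood at 4.76 and 4.78, both under the filter value, and the difference in salt effect was 1.49 ± 0.16 (SE).

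Of 8 tested genes of the IL-12 family, 2 rose and 1 fell, beside 16.8% and 21.8% of all genes tested. Il12a, the p35 subunit specific to IL-12 and IL-35, read 8.18, 8.48, 8.47 and 8.74 at 290 mOsm and 7.72, 7.77, 7.77 and 7.64 at 450 mOsm, both with LPS, a 1.67-fold fall (-0.74 ± 0.10 SE, limma with Benjamini-Hochberg adjustment, adjusted p = 9.45e-06). Il12b, the p40 subunit shared with IL-23, read 12.75, 12.87, 12.53 and 12.73 against 13.20, 13.18, 12.90 and 12.89. Its groups did not overlap, but the change of 0.33 ± 0.15 did not pass the test (adjusted p = 0.0964 by limma). It passed when only the arrays with LPS entered the fit (adjusted p = 0.0139 by limma). Ebi3 rose by 0.58 and the receptor chain Il12rb2 by 0.82. Il23a, a subunit gene of IL-23, did not pass the filter and was not tested. It read 5.78 to 5.99 at 290 mOsm and 6.71 to 7.54 at 450 mOsm, both with LPS.

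In the IL-1 family, 8 of 19 genes rose and 5 fell. Il33, an alarmin released from damaged cells, read 7.05, 7.29, 6.03 and 6.79 at 290 mOsm and 9.73, 9.74, 8.95 and 9.45 at 450 mOsm, both with LPS. Mouse 3 was lowest in both groups, and the groups stood apart at 6.41-fold (2.68 ± 0.20 SE, limma with Benjamini-Hochberg adjustment, adjusted p = 1.23e-08). The receptor antagonist gene Il1rn rose by 0.30 with LPS and fell by 1.28 without it. Il1b changed by 0.18 ± 0.17, and passed only when the fit was limited to the arrays with LPS (adjusted p = 0.0102 by limma). The count of genes that rose in this family was 5 without mouse 1 and 5 without mouse 2. Of 17 other cytokines and growth factors, 4 rose and 3 fell: Il6 rose by 0.47, and Inhba, the activin A subunit, read 10.69, 10.93, 10.85 and 11.13 against 12.60, 12.63, 12.55 and 12.49, a 3.18-fold rise.

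The TNF superfamily held the ligand and receptor of the 4-1BB pair, a costimulatory axis for T cells, and both rose. Tnfrsf9, the receptor 4-1BB, read 9.21, 8.68, 8.42 and 8.66 at 290 mOsm and 11.17, 11.00, 11.03 and 11.24 at 450 mOsm, both with LPS, a 5.16-fold rise (2.37 ± 0.13 SE, limma with Benjamini-Hochberg adjustment, adjusted p = 2.84e-10). Its ligand Tnfsf9 read 7.78, 7.39, 7.20 and 7.33 against 8.98, 9.04, 8.64 and 8.91, a 2.77-fold rise. Neither showed overlap. In all, 6 of 23 genes of the superfamily rose and 5 fell, beside 16.8% and 21.8% of all genes tested. OX40 ligand Tnfsf4 rose by 1.14, lymphotoxin beta Ltb fell by 1.10 and Cd40 fell by 0.27. Tnf itself changed by -0.18 ± 0.14. The count of those that fell was 3 without mouse 2.

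B7 family ligands and related receptors, which deliver or withhold costimulation of T cells, rose in 6 of 12 and fell in 1, with a median of 0.31. That median was 0.12 with no filter on dim genes and 0.11 with the filter at the 65th percentile. Cd80 read 11.30, 11.05, 10.99 and 11.03 at 290 mOsm and 11.87, 11.88, 11.90 and 11.88 at 450 mOsm, both with LPS, so the salt values were nearly identical across mice and all above the controls, at 1.73-fold. Cd86 rose by 0.55 and the PD-L2 gene Pdcd1lg2 by 1.09, while the PD-L1 gene Cd274 changed by -0.12 ± 0.07. The inhibitory receptor genes Btla and Havcr2 (TIM-3), which the list also holds, rose by 1.05 and 0.77, and Vsir, which encodes the inhibitory ligand VISTA, fell by 0.40. The early activation antigen Cd69 read 12.33, 12.07, 12.07 and 12.05 against 10.99, 10.91, 10.70 and 10.92, a 2.38-fold fall. Cd69 was in no list and is named after its values were seen.

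The SLAM family showed the largest rise of any gene named by rule. Slamf1, a self-ligand receptor of activated lymphocytes and dendritic cells, read 7.56, 7.81, 7.01 and 7.72 at 290 mOsm and 10.34, 10.09, 10.27 and 10.22 at 450 mOsm, both with LPS. Every salt culture lay more than 2 log2 units above every control, at 6.5-fold (2.70 ± 0.12 SE, limma with Benjamini-Hochberg adjustment, adjusted p = 2.12e-11). Without LPS its means were 5.60 and 5.21, both under the filter value of 6.83, in the range of dim probe sets, and the difference in salt effect was 3.09 ± 0.18. The rest of the family did not follow: 2 of 10 genes rose and 4 fell, with Slamf8 at -0.39. The count of those that fell was 1 without mouse 2 and 1 without mouse 4.

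Chemokines moved in both directions. Of 13 CC chemokines, 6 rose and 2 fell, with the monocyte attractants Ccl8 and Ccl7 at 1.55 and 1.05. No CC chemokine was called lower without mouse 4. Of 11 CXC chemokines, 2 rose and 4 fell, and 2 of the latter were the platelet genes named above. Cxcl1, a neutrophil attractant, read 9.08, 9.26, 9.72 and 9.58 at 290 mOsm and 10.60, 10.63, 10.98 and 10.29 at 450 mOsm, both with LPS, a 2.32-fold rise. Cxcl9, an interferon gamma-induced attractant of T cells, read 11.52, 11.21, 11.19 and 11.38 against 10.40, 10.49, 10.28 and 10.35, a 1.93-fold fall. Cxcl10 changed by -0.27 ± 0.17 and did not pass, except in the fit limited to the arrays with LPS (adjusted p = 0.00418 by limma). Of 10 chemokine receptors, 3 rose and 3 fell: Ccr2 fell by 0.94, and the neutrophil receptor Cxcr2 fell by 3.11.

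**Figure D3:**
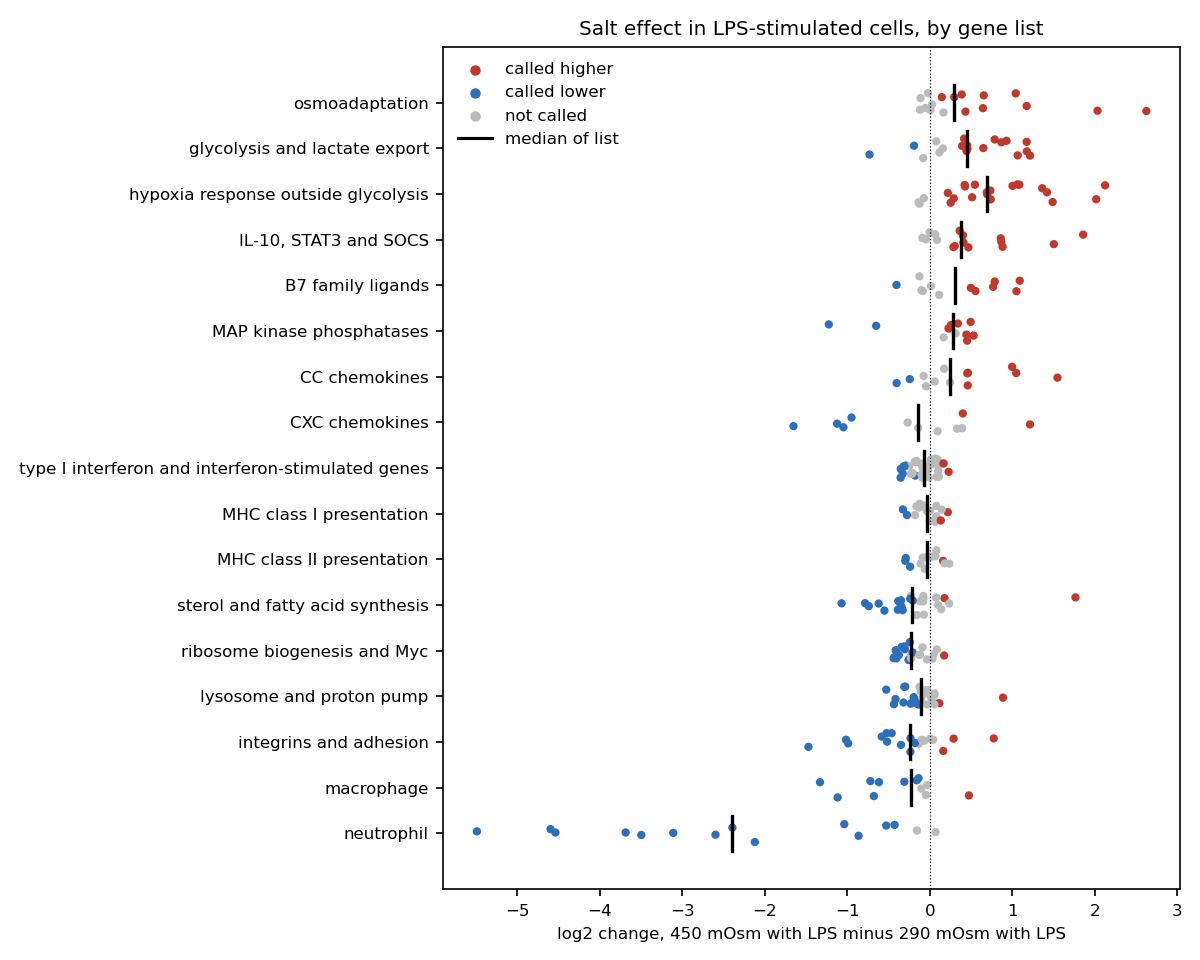
Log2 change from 290 to 450 mOsm with LPS for the tested members of 17 gene lists, as dots, red where called higher, blue where called lower and grey where not called, with a black bar at the median of each list. The hypoxia dots lie mostly to the right of 0, the neutrophil dots reach past -5, and interferon-stimulated genes sit close to 0.

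Genes of LPS signalling moved both ways. Of 19 TLR4 pathway genes, 4 rose and 6 fell, with Tlr4 itself down by 0.41 and the co-receptor Cd14 up by 0.28. Of 17 NF-kB subunits and inhibitors, 5 rose and 1 fell, including Relb at -0.35 and the inhibitor Bcl3 at 0.36. AP-1 and early response factors divided into 6 that rose and 6 that fell of 20. Ier3, Fosl2 and Fosl1 rose by 1.41, 0.95 and 0.86, whereas Nr4a1 fell by 0.93 and Egr2 by 0.75. MAP kinase phosphatases, which switch off the kinases that LPS activates, rose in 7 of 12 and fell in 2, with a median of 0.29. Dusp1 rose by 0.45, and Dusp6 and Dusp2 fell by 1.22 and 0.65. Of 22 lineage transcription factors, 4 rose and 6 fell, with Runx3 at 0.63 and Cebpd at -0.50. Flt3, the receptor for the dendritic cell growth factor, read 7.49, 7.24, 7.26 and 7.20 at 290 mOsm and 6.08, 6.30, 6.49 and 6.24 at 450 mOsm, a 2.03-fold fall. Its values at 450 mOsm lay under the filter value of 6.83, in the range of dim probe sets.

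Few interferon-stimulated genes passed the test with LPS. Of 36 tested, 2 rose and 7 fell, and the median was -0.07. Ifih1 fell by 0.33 and Cmpk2 by 0.35, and Irf7 changed by -0.02 ± 0.10. When only the arrays with LPS entered the fit, 13 of the 36 fell, beside 2312 of all 10236 genes, so the share that fell lay below that of all genes in one fit and above it in the other. Without LPS 30 of the 36 rose, where 20.6% of all genes rose, with a median of 0.67, and the difference in salt effect was called lower with LPS for 31 and higher for 2, where 10.4% of all genes were called lower. Those 2 were the interferon receptor genes Ifnar1 and Ifnar2, with differences of 0.29 and 0.42. Irf7 rose by 1.04 without LPS, and the difference was -1.06 ± 0.14 (limma with Benjamini-Hochberg adjustment, adjusted p = 3.67e-05). Rtp4 had the largest resting rise of those named by rule, 1.79, against -0.18 ± 0.11 with LPS (adjusted p = 0.00729 by limma on the arrays with LPS alone). Of 18 MHC class I genes 2 rose and 2 fell. Of 14 MHC class II genes 1 rose (2 with the mouse as a block) and 3 fell. Of all genes tested, 16.8% rose and 21.8% fell. Erap1, the peptide-trimming enzyme, fell by 0.33.

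Many genes of sterol and fatty acid synthesis fell. The pathway is driven by SREBP factors when cell sterol is low. Of 26 tested genes, 13 fell and 2 rose, with a median of -0.22, and 8 fell without mouse 3. Hmgcs1, an early enzyme of the pathway, read 9.98, 10.00, 9.95 and 9.80 at 290 mOsm and 8.83, 8.98, 8.94 and 8.71 at 450 mOsm, both with LPS, a 2.10-fold fall (-1.07 ± 0.08 SE, limma with Benjamini-Hochberg adjustment, adjusted p = 2.19e-08). Insig1, which retains SREBP in the endoplasmic reticulum and is itself a target, read 9.44, 9.43, 9.51 and 9.34 against 8.81, 8.97, 8.54 and 8.46, a 1.67-fold fall. Msmo1, Cyp51 and Sc5d fell by 0.78, 0.62 and 0.55, and the regulator Srebf2 by 0.38. The 2 genes that rose were Srebf1, at 0.18 and not called without mouse 1 (0.16) or without mouse 2 (0.17), and Scd1, the stearoyl-CoA desaturase. Scd1 read 8.09, 7.68, 7.40 and 7.32 against 9.58, 9.70, 9.18 and 9.10, a 3.40-fold rise. Without LPS the list moved up, with 12 genes higher and 2 lower, beside 20.6% and 23.7% of all genes. The difference was called lower with LPS for 14 genes and higher for none, beside 10.4% and 10.7% of all genes. Scd1 rose alike in both settings, by 1.77 and 1.80. Ch25h, which makes 25-hydroxycholesterol, an inhibitor of SREBP processing, rose by 1.14. SREBP processing was not measured, and the part of Ch25h in the other changes was not tested. The liver X receptor gene Nr1h3 fell by 0.82, and the lipid uptake genes Cd36 and Lpl fell by 0.74 and 0.58, while the droplet coat gene Plin2 rose by 0.57. Of 19 genes of lipid droplets and fatty acid uptake, 6 rose and 6 fell, and of 11 genes of cholesterol efflux and the liver X receptors, 2 rose and 2 fell.

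Retinoic acid genes were called higher in 5 of 11 and lower in 4. Aldh1a2, the enzyme by which dendritic cells make retinoic acid, read 10.17, 10.23, 9.71 and 9.96 at 290 mOsm and 11.79, 11.81, 11.64 and 11.74 at 450 mOsm, both with LPS, a 3.32-fold rise with no overlap. Without LPS it rose by 3.01, from 6.82 to 9.83, so the salt effect was smaller with LPS by 1.28 ± 0.24 (SE). Dhrs9, a retinol dehydrogenase, fell by 0.74 and the retinoid-induced transglutaminase Tgm2 rose by 0.65. Of 14 prostaglandin and leukotriene genes, 6 rose and 4 fell. The prostaglandin-degrading enzyme Hpgd rose by 1.42 and the PGE2 synthase Ptges by 0.73, and Hpgds, for prostaglandin D2, and Alox5, for leukotrienes, fell by 1.47 and 1.04.

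Surface and matrix genes fell more than they rose. Of 19 integrin and adhesion genes, 11 fell and 3 rose, with a median of -0.23, and Itga6, Itgb3 and Itgal fell by 1.47, 1.02 and 0.58. Of 24 lectins, scavenger and Fc receptors, 9 fell and 6 rose, with the myeloid receptors Clec5a and Clec12a at -1.42 and -1.26. Of 12 complement genes, 7 fell and 2 rose, although 2 fell without mouse 3. Of 19 matrix genes, 9 fell and 3 rose. The gelatinase Mmp9, which is stored in neutrophil granules and is also a neutrophil marker here, fell by 2.12, and its inhibitor Timp1 rose by 1.16. These lists moved in the same direction as the neutrophil and macrophage sums given above, whose part in them was not tested. The lists share members, so part of that likeness is built in. The macrophage list also holds C1qa, C1qb and C1qc of the complement list. It shares Mrc1, Msr1, Marco, Cd68 and Mertk, among others, with the receptor list. The neutrophil list shares Mmp8 and Mmp9 with the matrix list.

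Growth and housekeeping lists had medians between -0.23 and 0.09, and their counts stand beside 16.8% of all genes that rose and 21.8% that fell. Ribosome biogenesis and Myc genes fell in 11 of 21 and rose in 1, with a median of -0.23 and Ncl, the nucleolin gene, at -0.37. Lysosome and proton pump genes fell in 13 of 29 and rose in 2, with a median of -0.11. The 2 that rose were the protease Ctsk, at 0.89, and the membrane protein gene Lamp1, at 0.12, which lost its call when any 1 of the 4 mice was left out (changes from 0.11 to 0.13). Of 29 cell cycle genes, 7 fell and 4 rose, with Top2a at -0.68 and Cdk4 at 0.41. Of 15 heat shock chaperones 6 rose and 3 fell, of 21 endoplasmic reticulum chaperones and stress genes 3 rose and 3 fell, and of 26 amino acid response and tRNA synthetase genes 5 rose and 4 fell. Mdm2, a p53 target and p53 inhibitor, rose by 0.62, and 6 of 15 p53 targets fell while 2 rose. In the BCL2 family 2 of 14 rose (4 with the mouse as a block) and 3 fell, with Bcl2 at -0.78 and the NOXA gene Pmaip1 at -0.54.

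Across all genes, the salt effect differed between LPS-treated and resting cells for 2161 genes, or 21.1% of those tested, with 1097 changes higher and 1064 lower in the presence of LPS. The count was 1383 without mouse 2. The highest differences by rule were those of Lcn2, Chst11, Slamf1, Hilpda, Gpr183, Il33, Hamp, F3, Ccl2 and Vegfa. For Slamf1, Il33 and Hamp both means without LPS lay under 6.83, so the size of their differences is set against dim probe sets. Chst11, a chondroitin sulfotransferase, rose by 1.41 with LPS and fell by 1.75 without it. Gpr183 rose by 1.92 with LPS and fell by 0.78 without. F3, the tissue factor gene, changed by -0.33 ± 0.15 with LPS and fell by 2.52 without, and its change with LPS was called (-0.45) without mouse 4 of the 290 mOsm group. Ccl2 rose by 0.46 with LPS, which was not called without mouse 2 (0.45, adjusted p = 0.067 by limma), and fell by 1.69 without LPS. The lowest differences were led by Vcan, the proteoglycan versican, which stood at 11.66 in both LPS groups and rose by 2.72 without LPS. Ccl17, a T cell attractant, rose by 1.00 ± 0.30 with LPS and by 3.11 without. The others were Ifitm6, Rtp4, Saa3, Slc5a3, Cfb, Cdc42ep3, Gbp2b and Smpdl3b. Gbp2b changed by -0.28 ± 0.19 with LPS and was called lower with the mouse as a block (adjusted p = 0.039 by limma). Cdc42ep3 fell by 1.10 with LPS and rose by 0.66 without it. Saa3, an acute phase protein, and Cfb, complement factor B, rose by 2.11 and 2.07 without LPS and changed by 0.21 ± 0.14 and 0.29 ± 0.14 with LPS, which passed in the fit limited to the arrays with LPS (adjusted p = 0.0112 and 0.00292 by limma). Ifitm6 rose by 0.35 with LPS, which was not called without mouse 1, without mouse 2 or without mouse 3 (adjusted p = 0.16, 0.0611 and 0.087 by limma).

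**Figure D4:**
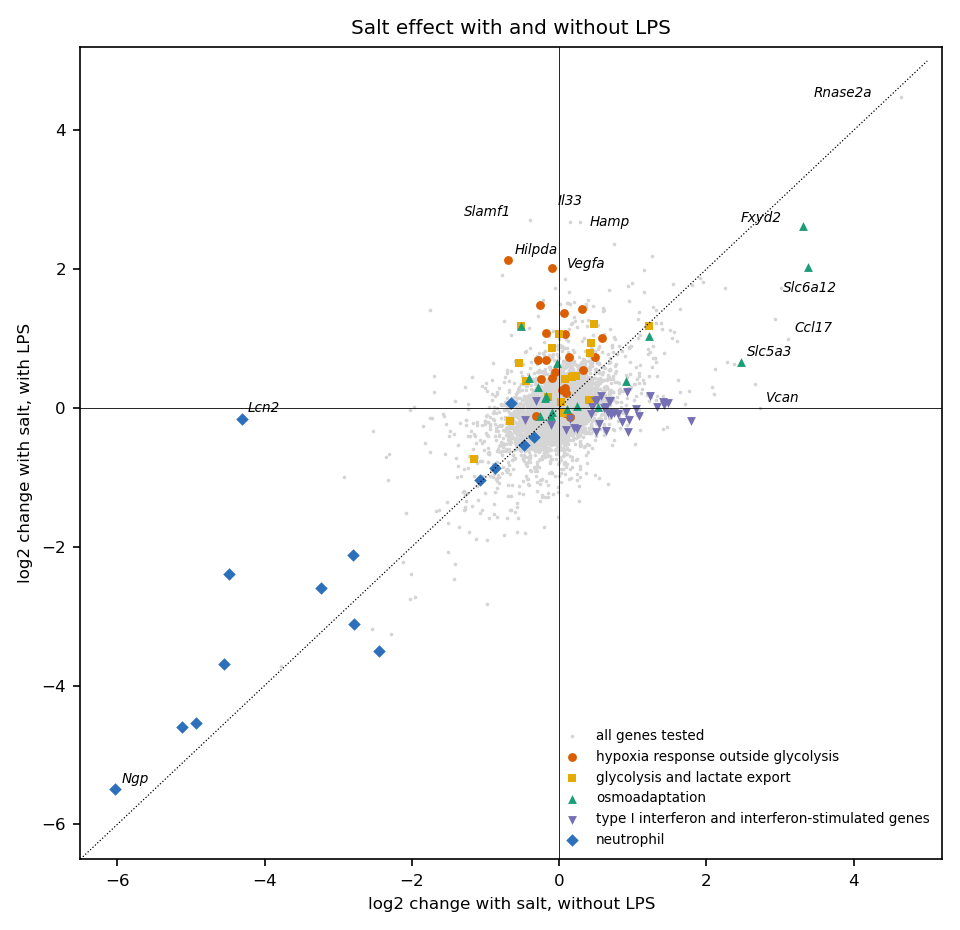
Log2 change with salt in resting cells (horizontal) against that in LPS-treated cells (vertical), with a grey point for each of 10236 genes, coloured marks for 5 lists and a dotted line where both are equal. Most hypoxia genes lie above the line, most interferon-stimulated genes lie to the right of it near a vertical value of 0, and the neutrophil genes with the largest falls lie to the lower left, while Lcn2 and Csf3r lie near a vertical value of 0.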

How the data were processed

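The labels describe 16 arrays, 4 mice in each of 4 groups. The authors deposited a table of log2 intensities, background-corrected, normalized and summarised by RMA with the oligo package, per the submitters' processing notes; tool and build versions were not given in the sources used here. The members and gene lists were chosen with earlier results of these data known.

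Probe sets with 1 gene symbol in the platform annotation were kept where at least 4 of 16 arrays exceeded 6.83, the median of all values, and each gene was represented by its brightest probe set. This filter uses all groups, and a gene dim in all of them was not tested: of 988 genes in the 57 lists, 787 were tested, 109 fell under the filter and 92 were not analysed here. A gene bright in a single group could enter through that group, so for such a gene, as for Il19, the filter and the test were not independent. One mean per group was fitted over all 16 arrays with limma 3.58.1 in R 4.3.3 (12 residual degrees of freedom), tested two-sided and adjusted by Benjamini-Hochberg over 10236 genes, called under 0.05. SE is that of the fit. RMA shrinks folds of dim probe sets, and bright ones saturate. The script was checked on simulated data.

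Replicate numbers pair the groups because they are the mouse numbers in the labels. Arrays of the same mouse in the LPS groups correlated in their deviations from the group means at -0.0065 to 0.172. The fit without a block was the main one, and the alternatives were the mouse as a block, other filters, probe set rules, normalizations, variance models, fewer groups, and leaving out mice or arrays. Genes named were the 15 highest and 15 lowest called changes with 1 sign in 4 mice, the 10 highest and 10 lowest differences, leaving out predicted, clone-based and receptor-family symbols and those starting with the small RNA letters Mir, Snor or Rn, and members of the lists. Promoter letters came from RefSeq.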

Additional observations from a re-analysis of the deposited data

Results flagged for a closer look

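Among the 41 genes whose values were given in every array, 82 groups of 4 arrays were checked for a single array far from the other 3, and 3 were found, where chance would give about 5% of groups. The control value of Mt1 in mouse 1 (12.25 at 290 mOsm with LPS) stood above the other 3, the control value of Hilpda in mouse 3 (7.30) stood below, and the control value of Cd69 in mouse 1 (12.33) stood above. In each case the 450 mOsm values lay beyond all 4 control values, so the direction of the salt effect was the same with or without that array.

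For 36 of the 41 genes the salt effect differed between LPS-treated and resting cultures by limma with Benjamini-Hochberg adjustment. The values in this paragraph are differences on the log2 scale, the salt effect with LPS minus that without. They were higher with LPS for the hypoxia and glycolysis genes Hilpda (2.82), Vegfa (2.11), Bnip3 (1.75), Slc2a1 (1.69), Egln1 (1.10), Slc16a3 (0.74), Pfkl (0.50) and Hif1a (0.42). The same held for the cytokine and receptor genes Slamf1 (3.09), Il33 (2.53), Il19 (1.78), Tnfrsf9 (1.62), Inhba (1.54), Il10 (1.49), Cd80 (1.06), Cxcl1 (1.05), Tnfsf9 (1.01), Il4ra (0.75) and Il12b (0.71). It also held for Lcn2 (4.16), Hamp (2.40), Gclc (1.02), Mt1 (0.95), Mt2 (0.93) and Nfat5 (0.67). The difference was negative for the solute transport genes Slc5a3 (-1.82), Slc6a12 (-1.35) and Fxyd2 (-0.68), the sterol genes Hmgcs1 (-0.77) and Insig1 (-0.69), and Cd69 (-1.36), Aldh1a2 (-1.28), Cxcl9 (-1.03), Il12a (-0.92), Flt3 (-0.78) and Mertk (-0.48). For Slamf1, Il33, Il10, Il19, Il12a, Il12b, Tnfsf9, Hamp, Cd69, Cxcl9 and Flt3 both means without LPS lay under the filter value of 6.83, so the resting salt effect was read from dim probe sets.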

How the results depend on the processing

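The count of genes called for salt with LPS, 3956, kept within 1.5 times under every alternative: 4225 with the mouse as a fixed replicate block, 3358 with the filter at the 65th percentile and 4646 with every probe set on its own. The replicate block called 1867 genes higher and 2358 lower. Of the calls 43.6% were higher, against 34.9% after centring each array on its median and 48.5% after quantile normalization. Leaving out a mouse or an array gave 2925 to 3810 called genes, 1304 to 1700 higher and 1587 to 2180 lower. The count for the difference in salt effect, 2161, ranged from 1383 to 2266 when a mouse or an array was left out, and the lowest value, without mouse 2, rests on fewer arrays. No called change of a named gene took the opposite sign under any alternative. Over the named genes and their alternatives, 4732 values kept their direction and side of the threshold, 37 lost the call and 23 gained it. Calls gained in the fit limited to the arrays with LPS were those of Il12b, Il1b, Cxcl10, Rtp4, Saa3 and Cfb. With the block in the fit over all groups, no other call of a named gene changed than those given. With the block in the fit limited to the arrays with LPS, Lamp1 also lost its call (adjusted p = 0.0819 by limma). Lamp1 was likewise not called with no filter or after median centring (adjusted p = 0.0795 and 0.146 by limma). Values at both ends of the intensity scale, as for Lcn2 and Il19, bound what the arrays can show.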
